A study of Mus musculus with 10 samples.

Results

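The members of the gene set described here were 10 immediate early genes, Fos, Fosb, Jun, Junb, Jund, Egr1, Atf3, Ier2, Zfp36 and Nr4a1, out of 26228 gene symbols counted in single endothelial cells (ECs) of mouse long bone. They were chosen by name, on the basis of earlier results of the same cells in which Fos and Fosb led a set of sinusoidal cells. Their co-variation over cells and their levels in sinusoidal cells against other cells are therefore given as descriptions with no test, and the tests compare libraries. Counts were of unique molecular identifiers (UMIs), each a captured mRNA molecule. Of 47466 cell barcodes, 45070 had 500 to 6000 genes, under 25% mitochondrial UMIs and at least 2 UMIs summed over the endothelial genes Cdh5, Pecam1, Egfl7 and Kdr, and these gated cells were used.

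As a class, immediate early genes are transcribed within minutes of a stimulus without new protein synthesis, and their mRNAs decay quickly. This need not hold for every member. Fos and Fosb pair with Jun, Junb and Jund to form AP-1, a transcription factor, while Egr1, Atf3 and Nr4a1 encode other transcription factors, Ier2 a nuclear protein and Zfp36 a protein that speeds mRNA decay. In vessels they respond to growth factors, inflammation and flow, and they are also known to be induced when tissue is digested to single cells.

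All cells came from femurs and tibias of C57BL/6 mice with the genotype Cdh5-mTnG, in which the Cdh5 promoter marks ECs with nuclear GFP on top of membrane tomato. The 5 groups, with 2 libraries each, were juvenile (3 weeks old, males and females), adult (12 weeks old, females), aged (75 weeks old, females), and adult females of 12 weeks given parathyroid hormone (PTH) or alendronate, a bisphosphonate. Bones were digested with collagenase, haematopoietic lineages were depleted and GFP and tomato double-positive cells were sorted. Animals were pooled within a group, so p-values measure the spread between libraries, which may be technical, and the adult libraries are shared by all 4 comparisons.

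The libraries held 2163 to 7496 gated cells with medians of 3116 to 5007 UMIs per cell. The aged libraries stood apart, with median mitochondrial shares of 2.37% and 2.49% against 1.16% to 1.43% elsewhere and with scaling factors of 1.22 and 1.23 against 0.919 to 0.984. The 276 symbols that begin with the letter U were counted in the aged tables and in no other table, so the other tables lack every such symbol. Age can thus not be told apart from how these libraries were made and counted. The first PTH library had no gated cell under 1799 UMIs, whereas the lowest cell of the other libraries had 647 to 790. Pairs of libraries shared at most 74 barcodes, 1.33% of the smaller library. Pairs with an aged library shared 1 to 4 barcodes (0.042% to 0.17%), and all other pairs at least 8 (0.37%). Haematopoietic markers summed to 3644 and 8749 counts per 1000000 UMIs (CPM) in the aged libraries and 48.4 to 1059 in the others over all gated cells, and 97.4 and 126 against 7.24 to 79.9 within the EC types named below. Their part in the members' differences was not tested.

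Promoter sequences are shown for 4 AP-1 subunits that moved together in the same cells, as the 250 bases before the RefSeq start on build GRCm38.p6, 5′ to 3′ on the gene's strand. The RefSeq table held 8 of the 10 members and not Ier2 or Egr1. Capitals mark a cyclic AMP response element (CRE) half-site, TGACG, or in Jun the CRE variant TGACATCA, searched on both strands after the windows had been read. The windows were chr12:85473640-85473889 (plus strand) for Fos, chr7:19310046-19310295 (minus strand) for Fosb, chr4:95052223-95052472 (minus strand) for Jun and chr8:84978749-84978998 (minus strand) for Junb.
Fos: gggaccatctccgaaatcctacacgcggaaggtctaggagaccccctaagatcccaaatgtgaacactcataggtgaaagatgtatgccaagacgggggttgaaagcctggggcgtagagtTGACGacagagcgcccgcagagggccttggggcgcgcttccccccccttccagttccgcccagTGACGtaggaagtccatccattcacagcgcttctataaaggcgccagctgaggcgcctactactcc
Fosb: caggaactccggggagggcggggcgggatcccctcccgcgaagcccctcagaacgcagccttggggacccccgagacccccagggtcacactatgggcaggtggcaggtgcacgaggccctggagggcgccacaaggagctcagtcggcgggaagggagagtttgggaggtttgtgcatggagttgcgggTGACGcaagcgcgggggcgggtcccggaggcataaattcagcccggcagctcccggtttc
Jun: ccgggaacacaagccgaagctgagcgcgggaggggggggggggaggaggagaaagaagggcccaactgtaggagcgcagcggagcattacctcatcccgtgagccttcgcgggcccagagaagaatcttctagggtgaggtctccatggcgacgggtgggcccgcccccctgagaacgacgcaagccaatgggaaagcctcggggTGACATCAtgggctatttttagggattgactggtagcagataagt
Junb: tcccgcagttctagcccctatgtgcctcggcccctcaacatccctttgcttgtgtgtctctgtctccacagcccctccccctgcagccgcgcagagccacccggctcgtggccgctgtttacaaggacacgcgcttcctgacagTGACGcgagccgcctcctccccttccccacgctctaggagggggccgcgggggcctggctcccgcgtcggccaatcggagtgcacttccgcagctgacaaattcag
Fos held 2 CRE half-sites, Fosb 1 and Junb 1. The RefSeq start lies at the annotated gene start for Fos and Jun, 30 bases before it for Junb and 6 bases inside the gene for Fosb. Among members not printed, the RefSeq windows of Atf3, Zfp36 and Nr4a1 lie inside the gene as the gene annotation draws it and that of Jund lies ahead of the annotated start without reaching it, so their letters may not be those before the start in use. With that limit, Atf3 held 1 half-site and Nr4a1 4. The half-site was in 17.7% of 32817 RefSeq promoter windows and the Jun variant, which contains no half-site, in 2.93%. Zfp36 held 1 CArG box, the element of serum response factor, which was in 1.47% of windows. No member window held the AP-1 letters TGANTCA, which were in 6.75% of windows.

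ECs were sorted into types by clustering without the members, the other immediate early genes or the heat shock genes, and clusters were named from fixed markers. Sinusoidal bone marrow ECs (bmECs, marked by Stab2 and Gpr126) numbered 18883, metaphyseal ECs (mpECs, Ramp3 and Piezo2) 12510, arterial ECs (aECs, Gja4 and Bmx) 6424, remodelling-associated or type R ECs (rECs, C1qtnf9 and Aqp7) 2704 and proliferating ECs (pECs, Mki67) 885. The remainder were 2592 cells in unnamed clusters and smaller haematopoietic, erythroid, mesenchymal and mural clusters. The largest unnamed cluster, of 1966 cells, scored highest for lymphatic and next for rEC markers. At a finer resolution of 0.8 a cluster of 1558 cells with its leading genes Vwf, Pgm5 and Fmo2 was named rEC. By total counts mean Fos was 336 CPM in the unnamed cluster and 172 CPM in the rEC cluster, so the rECs below may leave out some rEC-like cells. Types were compared on UMIs summed per type and library, scaled by TMM to CPM, as each type against the mean of the other types within libraries. A member was called where its log2 difference was beyond 1 with an adjusted p under 0.05 (edgeR quasi-likelihood test, Benjamini-Hochberg adjustment over all genes).

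The higher level of Fos and Fosb in sinusoidal cells is the pattern from which the members were chosen, so the bmEC levels below carry no test. Fos stood at 519 ± 266 CPM (SD, n = 10 libraries) in bmECs and at means of 177 to 208 CPM in the other 4 types, a log2 difference of 1.53. Fosb was at 81.6 ± 44.0 CPM in bmECs and at 20.7 to 36.1 CPM elsewhere, a log2 difference of 1.63. Both genes were highest in bmECs in 10 of 10 libraries. Nr4a1, an orphan nuclear receptor, had the opposite order, with 15.5 ± 8.57 CPM in bmECs against means of 32.2 to 52.3 CPM in the others, a log2 difference of -1.55, and it was lowest in bmECs in 10 of 10 libraries.

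These 3 of 10 members passed the limits in bmECs, where 15.8% of 11818 genes did, a count from which nothing is read because of how the members were chosen. In rECs 1 member was called, where 16.1% of genes were. That 1 was Atf3, a stress-induced repressor, at 19.1 ± 26.5 CPM in rECs (log2 difference 1.36 ± 0.26, SE), and without the first alendronate library its difference was 0.79 and was no longer called. No member was called in aECs (12.9% of genes called), mpECs (5.75%) or pECs (10.9%). No member there had a log2 difference beyond 1, so none was called at an unadjusted p under 0.05 or by DESeq2 either.

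Below that fold limit the order of types differed from gene to gene. Ier2 was highest in aECs in 8 of 10 libraries (mean 496 CPM) and was lowest on average in bmECs (188 CPM), and aECs did not differ from rECs, the next in order (edgeR adjusted p = 0.11). Junb was highest in bmECs in 8 of 10 libraries (535 CPM), ahead of aECs at 367 CPM. Zfp36 stood at 144 CPM in bmECs and 114 CPM in rECs.

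Jun was at 584 CPM in rECs, 583 CPM in bmECs and 407 CPM in aECs. Values given below as scaled within each type come from a separate fit per type and do not share 1 scale. Small gaps between types are therefore not read from them. On those scales Jun was lower in rECs than in bmECs in juvenile and PTH libraries and higher in aged and alendronate libraries. Adult values were 536 and 587 against 624 and 639 CPM, and alendronate values 1371 and 1283 against 785 and 787 CPM. Jund ranged from 183 CPM in pECs to 335 CPM in rECs, and the order from the top was rECs, aECs, bmECs and mpECs. Between rECs and aECs the difference was not called (edgeR adjusted p = 0.48). This order did not hold in each group. Scaled within each type, adult Jund was at 196 and 178 CPM in rECs and at 335 and 268 in aECs. It was at 328 and 318 CPM in adult bmECs and 244 and 245 in adult mpECs. The 5 type means of Egr1, from 50.04 CPM in aECs to 119 CPM in rECs, differed from each next mean by less than the test could call, but types further apart in that order did differ. Egr1 was lower in aECs than in rECs by a log2 difference of -1.11 ± 0.27 (edgeR adjusted p = 0.0009), and it was higher in mpECs than in aECs by 0.74 ± 0.22 and in rECs than in pECs by 0.97 ± 0.35 (adjusted p = 0.0044 and 0.017). The first of these differences was not seen in the aged libraries on scales that differ between types, and no direction is read there. Scaled within each type, aged Egr1 was at 27.5 and 31.8 CPM in rECs and 43.6 and 34.2 CPM in aECs. Over the members, the median log2 difference was 0.35 in bmECs, 0.51 in rECs, 0.02 in aECs, -0.25 in mpECs and -0.49 in pECs.

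**Figure D1:**
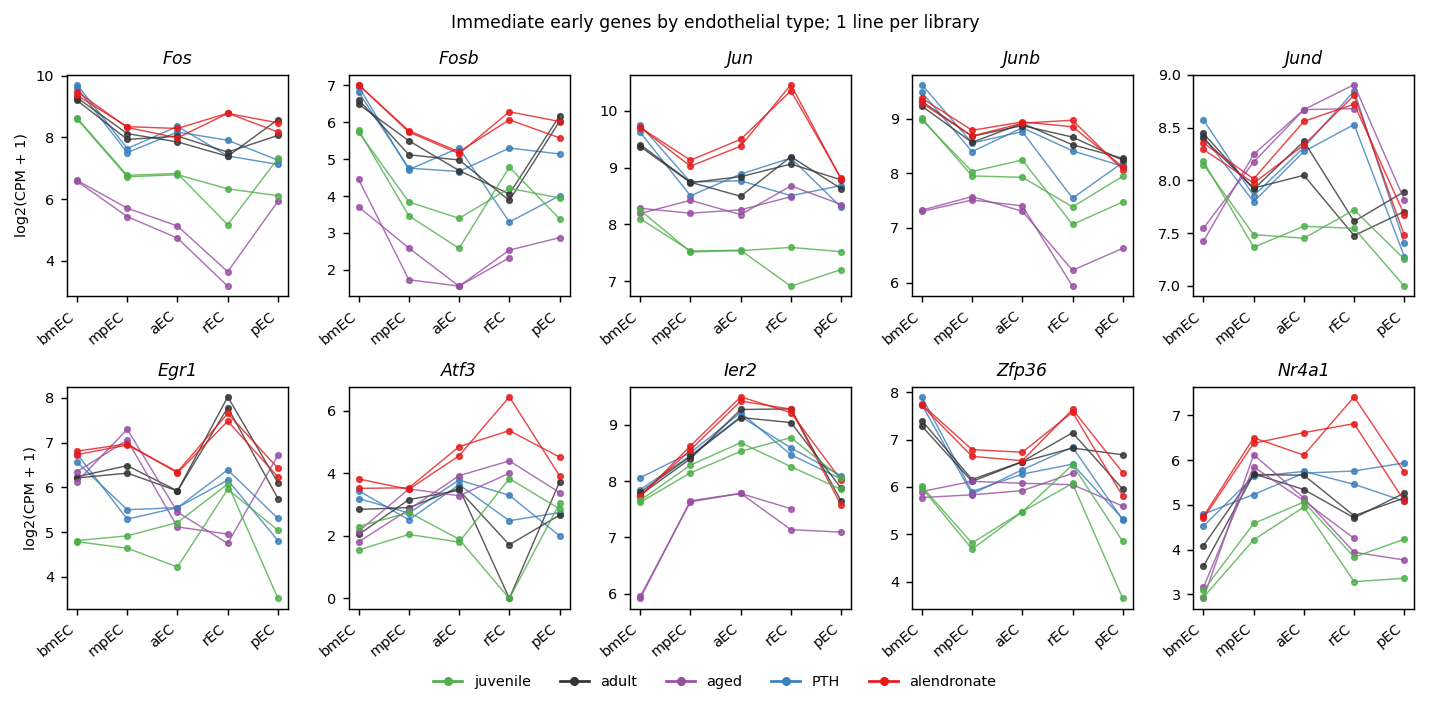
Each panel plots 1 immediate early gene as log2(CPM + 1) over the 5 endothelial types, with 1 line per library coloured by group. The pEC point of the second aged library is missing because fewer than 20 cells were in it. Fos and Fosb lines peak at bmEC and Nr4a1 lines dip there in all 10 libraries.

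Age and treatment were then compared over all gated cells, with UMIs summed per library. In these sums a smaller share of a cell type and less RNA per cell cannot be told apart. Juvenile libraries held Fos at 280 and 261 CPM, against 467 and 461 in adult, 89.7 and 72.8 in aged, 464 and 405 in PTH and 539 and 526 in alendronate. The aged libraries were thus the lowest, the juvenile libraries next, and the adult and PTH libraries were close. Fosb followed the same order, with 35.5 and 34.0 CPM in juvenile, 65.7 and 62.2 in adult, 9.05 and 8.26 in aged, 59.3 and 51.6 in PTH and 82.3 and 84.3 in alendronate.

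The Jun subunits were less alike. Jun, Junb, Jund, Atf3 and Zfp36 each overlap a gene on the other strand (Junos, Prdx2, Gm11175, Gm24748 and Gm44710), and as the strand setting of the counting is not stated, reads of such pairs cannot be told apart. Jun was at 247 and 229 CPM in juvenile, 532 and 520 in adult, 288 and 276 in aged, 527 and 498 in PTH and 696 and 710 in alendronate, so that juvenile and aged were both low. Junb was at 392 and 386 CPM in juvenile, 493 and 511 in adult, 175 and 158 in aged, 498 and 458 in PTH and 520 and 504 in alendronate. Only the aged libraries lay under 200 CPM for Junb. Jund, by contrast, stayed between 234 and 303 CPM in all 10 libraries.

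Among the other transcription factors, Egr1 was at 26.1 and 27.3 CPM in juvenile, 78.7 and 78.9 in adult, 81.7 and 77.1 in aged, 65.1 and 61.5 in PTH and 108 and 109 in alendronate. Aged and adult overlapped for Egr1, unlike for Fos. Nr4a1 was at 11.5 and 14.3 CPM in juvenile, 34.5 and 29.9 in adult, 36.5 and 32.1 in aged, 43.5 and 42.9 in PTH and 69.6 and 65.5 in alendronate. Atf3 was a low-count gene, at 5.46 and 2.58 CPM in juvenile, 5.82 and 6.34 in adult, 9.66 and 10.6 in aged, 9.27 and 8.34 in PTH and 19.9 and 18.1 in alendronate. The alendronate libraries were the highest for all 3 of these genes.

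Ier2 was at 235 and 245 CPM in juvenile, 321 and 303 in adult, 150 and 142 in aged, 366 and 350 in PTH and 368 and 377 in alendronate. Zfp36 was at 49.1 and 47.6 CPM in juvenile, 121 and 125 in adult, 71.6 and 56.3 in aged, 120 and 109 in PTH and 150 and 158 in alendronate. For both genes the juvenile and aged libraries lay below every adult library and the alendronate libraries above.

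**Figure D2:**
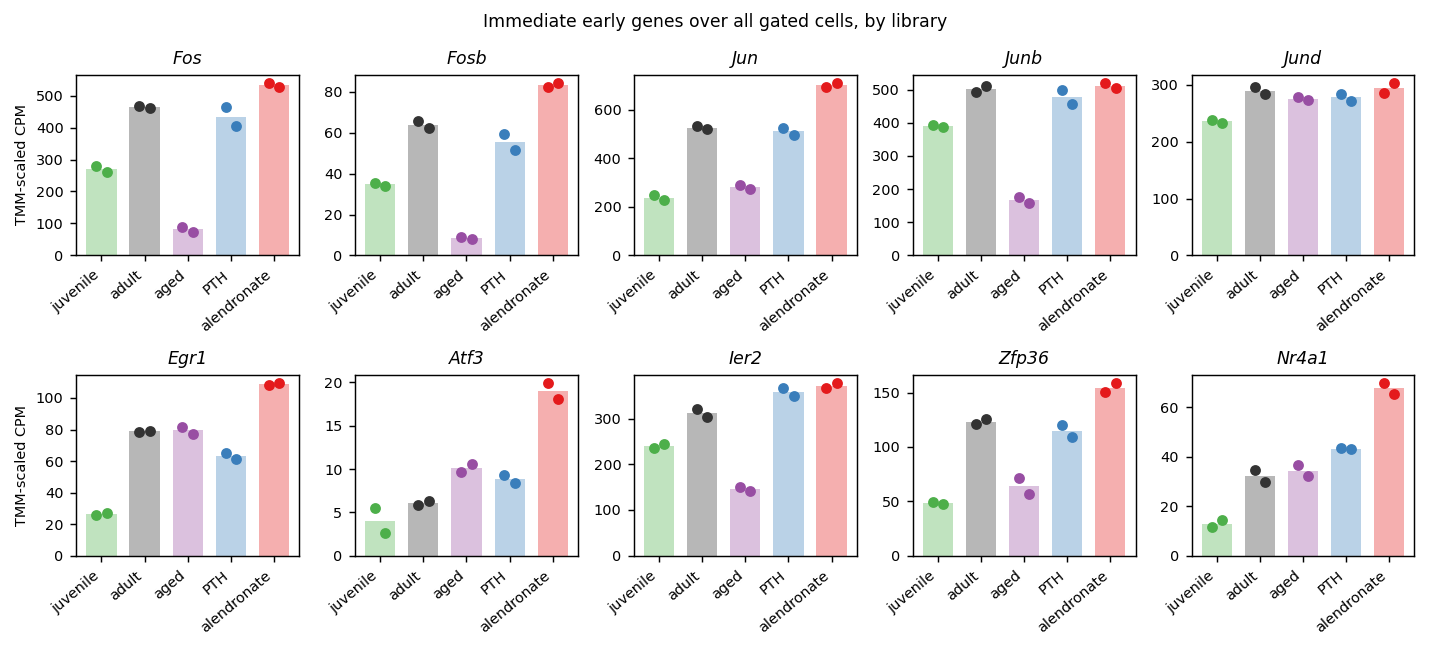
Each panel plots 1 immediate early gene in TMM-scaled CPM over all gated cells, with points for the 2 libraries of each group and a bar at their mean. Fos falls to 89.7 and 72.8 CPM in the aged libraries, whereas Jund lies between 234 and 303 CPM in every library.

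In juvenile cells 9 of 10 members were lower than in adult cells, against 41.2% of 16084 genes called, 20.5% higher and 20.7% lower. Egr1 fell by 1.56 ± 0.05 on the log2 scale (edgeR adjusted p = 3.2e-10), Zfp36 by 1.35 ± 0.09, Nr4a1 by 1.32 ± 0.10 and Jun by 1.14 ± 0.05. Fosb and Fos fell by 0.88 ± 0.07 and 0.78 ± 0.08, and Ier2, Junb and Jund by 0.38, 0.37 and 0.30. The median over the members was -0.83. Haematopoietic markers were lower too, at 57.8 and 48.4 CPM in juvenile against 539 and 735 in adult. Within the EC types they were at 11.5 and 7.24 CPM against 41.9 and 55.2, and their part in the members' differences was not tested. Among gated cells bmECs made up 58% and 58% in juvenile against 51% and 52% in adult. For aECs the shares were 4.8% and 5.1% against 11% and 11%. The part of this mix was not tested either. Atf3, at -0.59 ± 0.23, was not called (edgeR adjusted p = 0.059), and without the first juvenile library it was called at -1.23.

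In aged cells 6 members were lower and Atf3 higher, against 72.8% of genes called, 36.3% higher and 36.5% lower, so that the 7 calls of 10 are near the share of all genes. Fosb fell by 2.88 ± 0.08 on the log2 scale, Fos by 2.51 ± 0.08 (edgeR adjusted p = 1.6e-11) and Junb by 1.59 ± 0.05. Ier2, Zfp36 and Jun fell by 1.09, 0.95 and 0.90, and Atf3 rose by 0.74 ± 0.20. Jund, Egr1 and Nr4a1 had log2 differences of -0.07, 0.01 and 0.09 and were not called, although Jund was called lower without the second adult library (-0.13) and without the first PTH library (-0.11). These 3 values rest on the scaling. TMM and total counts differed by 0.36 log2 units for the aged group and by at most 0.05 for the others. By total counts Jund, Egr1 and Nr4a1 were called higher in aged cells, at 0.28, 0.37 and 0.45. The same 6 members stayed lower, a split of 4 higher and 6 lower in place of 1 and 6. The share of all genes called was not counted by total counts. The EC types also made up other shares of gated cells. In aged libraries bmECs were at 22% and 21%, against 51% and 52% in adult. For aECs the shares were 25% and 24% against 11% and 11%, and for rECs 12.6% and 12.5% against 4.4% and 4.1%. The part of this mix in the members' differences was not tested.

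With PTH 4 of 10 members were called over all gated cells. Nr4a1 rose by 0.42 ± 0.09 on the log2 scale and Ier2 by 0.20 ± 0.04, while Egr1 fell by 0.32 ± 0.05 and Fosb by 0.22 ± 0.06 (edgeR adjusted p = 0.0032, 0.0054, 0.00036 and 0.024). The 4 calls compare with 25.9% of genes called, 13.3% higher and 12.6% lower. The Fosb call was lost without the first adult library (-0.18) or the second PTH library (-0.12), and the Ier2 call without the second adult library (0.16). Atf3, at 0.51, was called without either juvenile library. The make-up of the gated cells moved as well. All 7 mesenchymal markers were detected, their sum at 210 and 393 CPM with PTH against 38.7 and 31.2 in adult. All 6 erythroid markers were detected at 354 and 271 against 2409 and 2389 CPM. The mix of EC types moved too. With PTH bmECs made up 33% and 29% of gated cells, against 51% and 52% in adult. For mpECs the shares were 36% and 37% against 25% and 24%. Without the clusters named for other cell types the same 4 members were called in the same directions, as was Atf3, at 0.58. That step left the mix of EC types in place, and its part in the members' differences was not tested.

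With alendronate 7 of 10 members were higher, against 22.6% of genes called, 12.2% higher and 10.5% lower. Haematopoietic markers summed to 1049 and 1059 CPM with alendronate against 539 and 735 in adult. Erythroid markers summed to 702 and 995 CPM against 2409 and 2389. EC types shifted as well, with bmECs at 40% and 39% of gated cells against 51% and 52% in adult. For rECs the shares were 10.4% and 10.5% against 4.4% and 4.1%, and for aECs 16% and 17% against 11% and 11%. The part of these shifts in the members' differences was not tested. Atf3 rose by 1.64 ± 0.18 on the log2 scale and Nr4a1 by 1.07 ± 0.08 (edgeR adjusted p = 3.9e-05 and 2.2e-06). Egr1, Jun, Fosb, Zfp36 and Ier2 rose by 0.46, 0.42, 0.38, 0.32 and 0.25. Fos, at 0.20, was not called (adjusted p = 0.084), but was called without either aged library. The Zfp36 call was lost without the first adult library (0.30) or the second alendronate library (0.29).

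The same comparisons were made within types, with a separate fit for bmECs, mpECs, aECs and rECs, and 105 of 160 member values were called. Of all genes 2.29% to 66.3% were called in these fits, and 34 of the 105 calls were in the aged fits, where the share was 46.2% to 66.3%, so counts are read per fit below. In bmECs Fos stood at 379 and 370 CPM in juvenile, 556 and 591 in adult, 85.8 and 84.4 in aged, 788 and 734 in PTH and 677 and 623 in alendronate. In mpECs it stood at 110 and 106 CPM in juvenile, 247 and 282 in adult, 51.0 and 41.9 in aged, 201 and 183 in PTH and 325 and 330 in alendronate. PTH libraries were thus the highest for Fos in bmECs and lay between juvenile and adult in mpECs.

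In bmECs 8 members were higher with PTH, against 9.80% of genes called. Zfp36 rose by 0.45 ± 0.06 on the log2 scale, Fos by 0.40 ± 0.04 (edgeR adjusted p = 2.9e-09) and Egr1 by 0.40 ± 0.07. Nr4a1 and Atf3 rose by 0.76 ± 0.15 and 1.01 ± 0.27, and Fosb, Jun and Junb by 0.31, 0.28 and 0.26. The Fosb call was lost without the first PTH library (0.25) or the second adult library (0.24), and the Atf3 call without the first adult library (0.58) or the second PTH library (0.80).

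In mpECs 5 members were lower with PTH, against 17.3% of genes called. Egr1 stood at 79.9 and 89.7 CPM in adult mpECs and at 38.5 and 44.7 CPM with PTH, and it fell by 0.98 ± 0.09 on the log2 scale (edgeR adjusted p = 8e-12). Fosb fell by 0.59 ± 0.13, Fos by 0.48 ± 0.06, Zfp36 by 0.28 ± 0.09 and Junb by 0.16 ± 0.06. Without the second adult library the calls of Fosb, Zfp36 and Junb were lost (-0.39, -0.25 and -0.10), as were those of Zfp36 and Junb without the second PTH library (-0.24 and -0.07). The count was lowest, at 2, when types were taken from a per-cell marker score.

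The difference between the mpEC and bmEC effects of PTH was itself tested as an interaction term. The fit covered bmECs, mpECs, aECs and rECs, and the test was added after the within-type values had been seen. It was called for 8 of 10 members, all with the mpEC effect below the bmEC effect, against 3.81% of 13269 genes. The difference was -1.39 ± 0.12 on the log2 scale for Egr1 (edgeR adjusted p = 1.6e-18), -0.88 ± 0.08 for Fos, -0.89 ± 0.15 for Fosb and -0.73 ± 0.10 for Zfp36. Jund and Ier2 were the members not called. In aECs no member was called with PTH by edgeR or DESeq2, against 6.81% of genes. At an unadjusted p under 0.05 by edgeR there were 3 members (Fos, Egr1 and Zfp36), and 1954 of all 11214 genes tested. The aEC effect lay below the bmEC effect for Egr1, Zfp36 and Junb (3 members, 2.12% of genes).

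**Figure D3:**
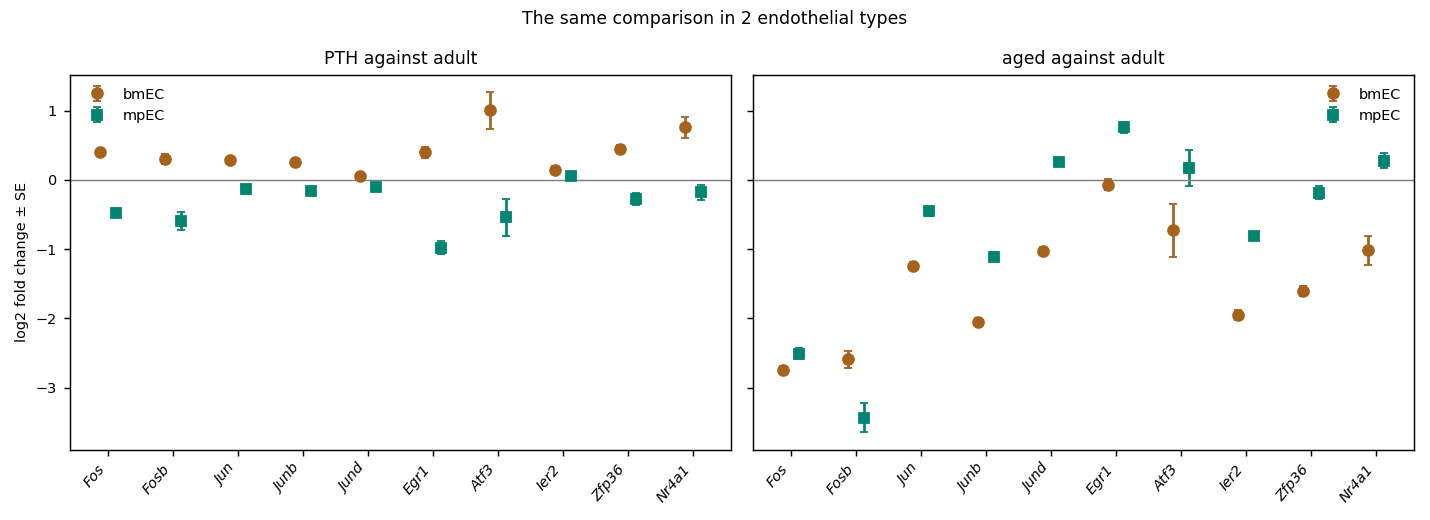
Points give the log2 fold change against adult with its SE for the 10 immediate early genes in bmECs and mpECs, for PTH on the left and aged on the right. With PTH, Egr1, Fos and Fosb lie above 0 in bmECs and below 0 in mpECs. In aged cells Jund, Egr1 and Nr4a1 lie above 0 in mpECs, and the bmEC values of Jund and Nr4a1 lie below.

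In aged bmECs 8 members were lower, against 66.3% of genes called. Fos fell by 2.75 ± 0.06 on the log2 scale (edgeR adjusted p = 2.5e-33), Fosb by 2.59 ± 0.12, Junb by 2.05 ± 0.05 and Ier2 by 1.95 ± 0.07. Zfp36, Jun, Jund and Nr4a1 fell by 1.60, 1.24, 1.03 and 1.02. Egr1, at -0.07, was not called, and its sign turned to 0.34 and was called by total counts. Clusters 0 and 6 held 52.7% and 34.3% of aged bmECs against 32.3% and 15.9% of adult bmECs, so the mix of bmEC clusters differed as well. Cluster 6 was shallow, at a median of 0.438 times the median UMIs of the library. By total counts mean Fos was 353 CPM in cluster 6, the lowest of the bmEC clusters, and 540 CPM in cluster 0, the highest. The part of this mix in the falls was not tested.

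In aged mpECs 5 members were lower and 3 higher, against 66.2% of genes called. Fosb, Fos, Junb, Ier2 and Jun fell by 3.44, 2.51, 1.11, 0.80 and 0.45 on the log2 scale. Egr1 stood at 79.9 and 89.7 CPM in adult and 156 and 131 CPM in aged mpECs and rose by 0.76 ± 0.08 (edgeR adjusted p = 1.9e-11). Nr4a1 and Jund rose by 0.28 ± 0.11 and 0.26 ± 0.06. The Nr4a1 call was lost without the first aged library (0.13) or either adult library (0.26 and 0.24), and in clusters made without integration neither Jund (-0.12) nor Nr4a1 (0.07) was called. Without integration 39 and 51 aged cells were in clusters named mpEC, against 683 and 735 with it, so that most aged mpECs hold that name through the integration.

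The aged effect in mpECs differed from that in bmECs for 8 members, 7 above and 1 below (Fosb), against 13.5% of genes. The difference was largest for Zfp36, at 1.33 ± 0.12, followed by Nr4a1 at 1.21 ± 0.25 and Jund at 1.20 ± 0.08 on the log2 scale, and it was not called for Fos or Atf3. Fos was thus lower in aged cells of both types by amounts whose difference was not called, whereas Jund moved in opposite directions.

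In aged aECs 8 members were lower and Jund higher, against 57.7% of genes called. Fosb and Fos fell by 3.80 ± 0.34 and 3.05 ± 0.13 on the log2 scale, and Junb and Ier2 by 1.54 and 1.42. Jund stood at 335 and 268 CPM in adult aECs and at 415 and 412 CPM in aged aECs, a rise of 0.45 ± 0.08 (edgeR adjusted p = 1e-05). The Nr4a1 value, -0.39, had an adjusted p of 0.05 and was lost without the second adult library (-0.24) or either aged library (-0.42 and -0.35). In clusters made without integration, where 93 and 131 aged cells were named aECs in place of 569 and 578, 5 members were lower in place of 8, and Nr4a1 turned to 0.63 and was called higher. The aEC effect differed from the bmEC effect for 8 members, 5 above and 3 below, against 16.1% of genes.

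In aged rECs 7 members were lower and 2 higher, against 46.2% of genes called. Fos fell from 184 and 168 CPM in adult rECs to 12.2 and 8.49 CPM, a log2 change of -4.06 ± 0.26 (edgeR adjusted p = 8.7e-25). Egr1 fell from 260 and 220 CPM to 27.5 and 31.8 CPM, or -3.02 ± 0.20, the reverse of its direction in mpECs. Jund rose from 196 and 178 CPM to 509 and 433 CPM, or 1.33 ± 0.15. Atf3 was counted at 1 and 0 UMIs in the adult and 21 and 15 UMIs in the aged rEC sums.

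The rEC effect of age differed from the bmEC effect for 7 members, 4 above and 3 below, against 8.12% of genes. The difference was 2.16 ± 0.13 for Jund and -3.16 ± 0.22 for Egr1 on the log2 scale. In rECs the calls of Fosb, Jun and Zfp36 in aged cells were each lost when 1 library was left out, Fosb without any 1 of the adult or aged libraries (-1.48 to -1.74), Jun without the second aged library (-0.36) and Zfp36 without the second adult library (-0.62).

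In juvenile cells every called member was lower within each type. In bmECs 8 members were lower (38.1% of genes called), in mpECs 9 (29.4%), in aECs 9 (12.8%) and in rECs 4 (3.67%). Jun fell by 1.20 ± 0.05 in bmECs, 1.22 ± 0.07 in mpECs, 1.15 ± 0.11 in aECs and 1.69 ± 0.22 in rECs on the log2 scale. Fos fell by 0.62 ± 0.04 in bmECs and 1.29 ± 0.07 in mpECs, a difference of -0.66 ± 0.09 that was called with those of Fosb and Junb (3 members, 7.39% of genes). For aECs Fos, Ier2, Junb and Jund differed from bmECs (4 members, 5.28%) and for rECs Junb alone (1 member, 1.77%), each with the larger fall outside bmECs. In rECs Jund and Fosb were not called and lay above adult, Jund at 222 and 203 CPM against 196 and 178 and Fosb at 18.5 and 29.0 CPM against 13.8 and 15.7. Only 47 and 31 rECs were in the juvenile libraries, and without the first of them the rEC calls of Fos (-1.05) and Egr1 (-1.76) were lost. The mpEC call of Ier2 (-0.13), the aEC call of Egr1 (-0.73) and the aEC call of Atf3 (-2.03) were lost without that library too, Atf3 also without any 1 of the other juvenile or adult libraries (-1.90 to -2.01).

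With alendronate 7 members were higher in bmECs (18.7% of genes called), 7 in mpECs (13.6%), 4 in aECs (7.41%) and 7 in rECs (2.39%). In bmECs and mpECs the rises were of 0.18 to 1.35 and 0.18 to 0.77 on the log2 scale, with Fos at 0.18 ± 0.04 and 0.31 ± 0.06. No member's mpEC effect was called as different from its bmEC effect by edgeR, against 0.701% of genes. At an unadjusted p under 0.05 there were 4 members, a limit at which all genes were not counted. This difference was not run in DESeq2. In bmECs the Fos call was lost without the first adult (0.14) or first alendronate library (0.12). In mpECs the Fosb call was lost without the first adult library (0.27) and the Ier2 call without either adult library (0.16 and 0.20) or the second alendronate library (0.15). The aEC call of Ier2 was lost without the second adult (0.16) or second alendronate library (0.20).

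In rECs Jun, Nr4a1, Fosb, Fos and Jund rose by more than 1 on the log2 scale with alendronate. Jun stood at 536 and 587 CPM in adult rECs and 1371 and 1283 CPM with alendronate and rose by 1.24 ± 0.13 on the log2 scale (edgeR adjusted p = 3e-13). Nr4a1 rose from 25.3 and 26.2 CPM to 165 and 110 CPM, or 2.41 ± 0.27, and Fosb from 13.8 and 15.7 CPM to 74.9 and 64.9 CPM, or 2.23 ± 0.37. Fos and Jund rose by 1.29 ± 0.15 and 1.18 ± 0.15. Atf3 was counted at 1 and 0 UMIs in the adult rEC sums and at 101 and 47 UMIs with alendronate. Egr1 was at 195 and 174 CPM with alendronate against 260 and 220 in adult rECs and was not called (-0.38). Heat shock genes moved in the same sums, 5 of 15 being higher (33.3% against 2.39% of genes), with Hspa1a at a mean of 244 CPM against 22.3 CPM in adult, and their part in the members' changes was not tested. The Zfp36 call (0.59) was lost without any 1 of the adult or alendronate libraries (0.44 to 0.76).

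The rEC effect of alendronate differed from the bmEC effect for 7 members, 6 above and 1 below, against 1.05% of genes. Nr4a1 differed by 1.56 ± 0.35, Jund by 1.31 ± 0.13, Fos by 1.13 ± 0.14 and Jun by 0.95 ± 0.10 on the log2 scale, and Egr1 lay below, at -0.91 ± 0.15. For aECs 3 members differed from bmECs, Jun, Jund and Ier2, all above (2.08% of genes). The rECs numbered 609 and 605 with alendronate and 246 and 222 in adult, and their median of 1970 UMIs per cell was the lowest of the 5 types.

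With PTH, 3 members were called in rECs, against 2.29% of genes. Jund rose from 196 and 178 CPM to 491 and 368 CPM, and Egr1 and Ier2 fell by 1.56 ± 0.20 and 0.60 ± 0.15 on the log2 scale (edgeR adjusted p = 2.2e-06, 8.4e-09 and 0.016). The rEC effect differed from the bmEC effect for 4 members, 1 above (Jund, 1.00 ± 0.16) and 3 below (Egr1, -1.98 ± 0.22, Ier2 and Junb), against 1.22% of genes. The PTH libraries held 26 and 329 rECs. The Ier2 call was lost without the first adult library (-0.47) or the second PTH library (-0.61) and by DESeq2 (-0.59). With types taken from a per-cell marker score the Jund value was 0.35 and not called.

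**Figure D4:**
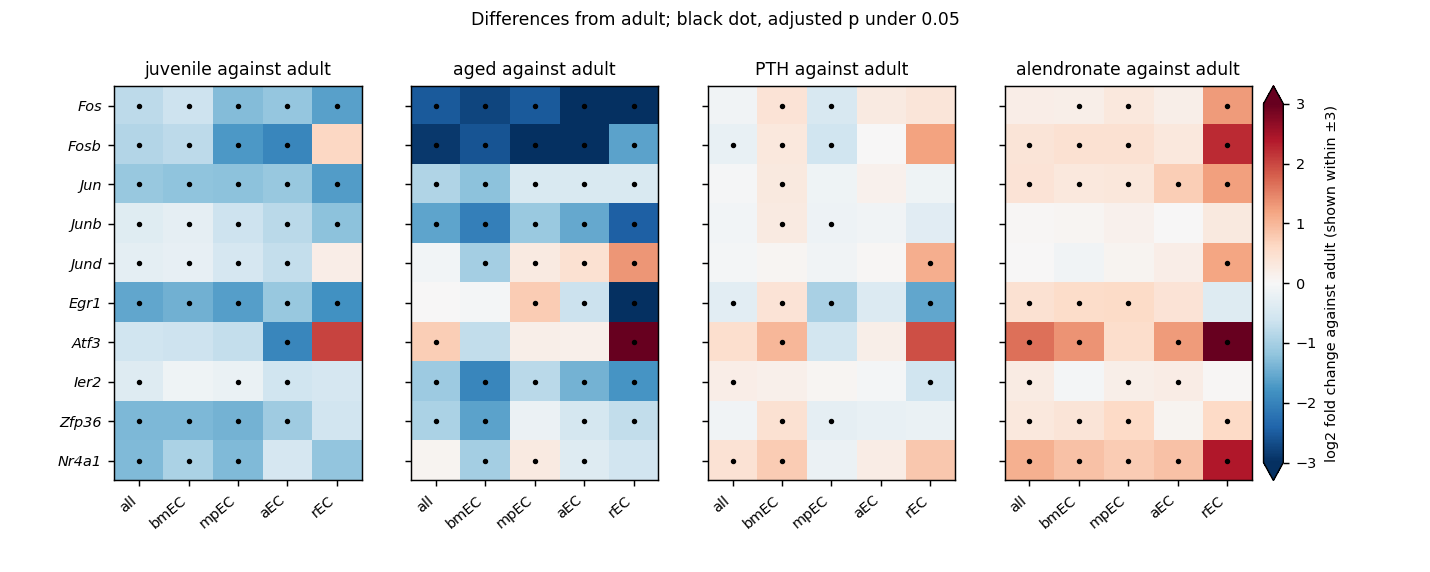
Each panel is 1 comparison with adult, with genes in rows, all gated cells and the 4 tested types in columns and colour for the log2 fold change, drawn within ±3. Black dots mark an adjusted p under 0.05. The Jund row is blue in aged bmECs and red in aged mpECs, aECs and rECs, and the PTH panel is red in bmECs and mostly blue in mpECs.

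The share of each member's variance between the 40 type and library sums summarises these patterns as a description. For Fos, group carried 68.0%, type 24.3% and their combination 6.54%. Jun was the member most bound to group, at 77.0%. The combination of type and group carried 50.9% for Jund, 36.5% for Egr1 and 31.0% for Atf3, against 6.50% to 15.1% for the others. Ier2 and Nr4a1 had the largest shares by type, at 43.0% and 40.1%. Libraries within a group carried 1.15% to 3.85% for all members but Atf3, at 18.6%.

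Single cells were then compared after thinning each to 1000 UMIs, which left out 1763 cells (3.91%). A UMI of Fos was found in 18.0% of cells. By library the share was 13.5% and 12.6% in juvenile, 21.9% and 21.2% in adult, 4.81% and 4.76% in aged, 21.4% and 17.8% in PTH and 23.5% and 23.3% in alendronate. Unthinned, 35.1% of cells had a Fos UMI. With 2 libraries against 2 an exact two-sided permutation test cannot pass the threshold, so the shares are given as values. No cell type known to lack these genes was at hand for a background. A Fos UMI was in 10.2% of the 285 erythroid cells (median 10887 UMIs before thinning) and in 48.1% of cells in the haematopoietic cluster. The aged shares lie below the erythroid one and are read no further, and in the second PTH library the erythroid share, 26.2% of 42 cells, was above that of all its cells. A Jund UMI was in 24.3% and 24.6% of aged and 20.6% and 19.8% of adult cells. Thinning to a fixed number of UMIs scales by total counts, and Jund in aged cells was at -0.07 by TMM and 0.28 by total counts on the log2 scale, so no direction is read from its shares.

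Fos was unevenly spread over cells. Its variance over cells was 3.29 times its mean, against 2.06 for Junb, 2.05 for Jun and 1.34 to 1.57 for the other members. Independent sampling gives a value near 1. Differences between groups and cell types can enter this ratio, and it lies nearer 1 for genes with low counts. Members are therefore not ranked by how evenly they were spread. Cells with 3 or more Fos UMIs are called Fos-rich here. Among cells of the EC types they made up 2.50% and 2.24% in juvenile, 4.01% and 4.49% in adult, 5.06% and 3.90% in PTH and 4.44% and 4.47% in alendronate. In aged they were 7 and 8 cells, or 0.343% (95% Clopper-Pearson interval 0.138% to 0.705%, counting error only) and 0.380% (0.164% to 0.747%).

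All other members were higher in Fos-rich cells than in cells with no Fos UMI. Pooled over the 8 libraries with at least 20 Fos-rich cells (1378 cells in all), the ratio of mean UMIs was 11.7 for Fosb (library range 9.57 to 18.4), 7.47 for Zfp36, 6.38 for Junb, 5.77 for Egr1 and 5.06 for Jun. It was 4.63 for Nr4a1, 4.17 for Jund and 3.04 for Ier2, and 8.37 for Atf3 with a range over libraries from 0 to 16.9. The median over 3406 other genes was 0.969. By these pooled ratios members of every role were higher in the same cells, Ier2 least and Fosb most.

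Correlations of log(1 + UMI) within library and type are a second description over cells, which share library and depth, and their order differed from that of the ratios, with Junb and Jun first and Atf3 last. The mean r with Fos over 10 libraries was 0.32 for Junb, 0.27 for Jun, 0.25 for Fosb, 0.21 for Zfp36, 0.20 for Jund and 0.16 for Egr1, and 0.14, 0.092 and 0.054 for Ier2, Nr4a1 and Atf3. The median over 3406 other genes was -0.0015. In bmECs r of Fos was 0.39 with Junb and 0.29 with Zfp36, and in mpECs 0.19 and 0.089. Such r shrink at low counts, and r of Fos with Junb was 0.41 at 2000 UMIs per cell. Fos was at 519 CPM in bmECs and 185 CPM in mpECs, and Atf3 was a low-count gene. Differences in r between types or genes are therefore not read as differences in coupling. By the rule for named genes, the genes most like Fos that are no members were Dusp1, Socs3, Btg2, Gadd45g, Apold1, Rgs4, Klf4, Pim3, Cebpb and Ier3, from r = 0.21 to 0.080. Those most like Jund were Dusp1, Btg2, Apold1, Klf4 and Gadd45g, from 0.12 to 0.072.

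**Figure D5:**
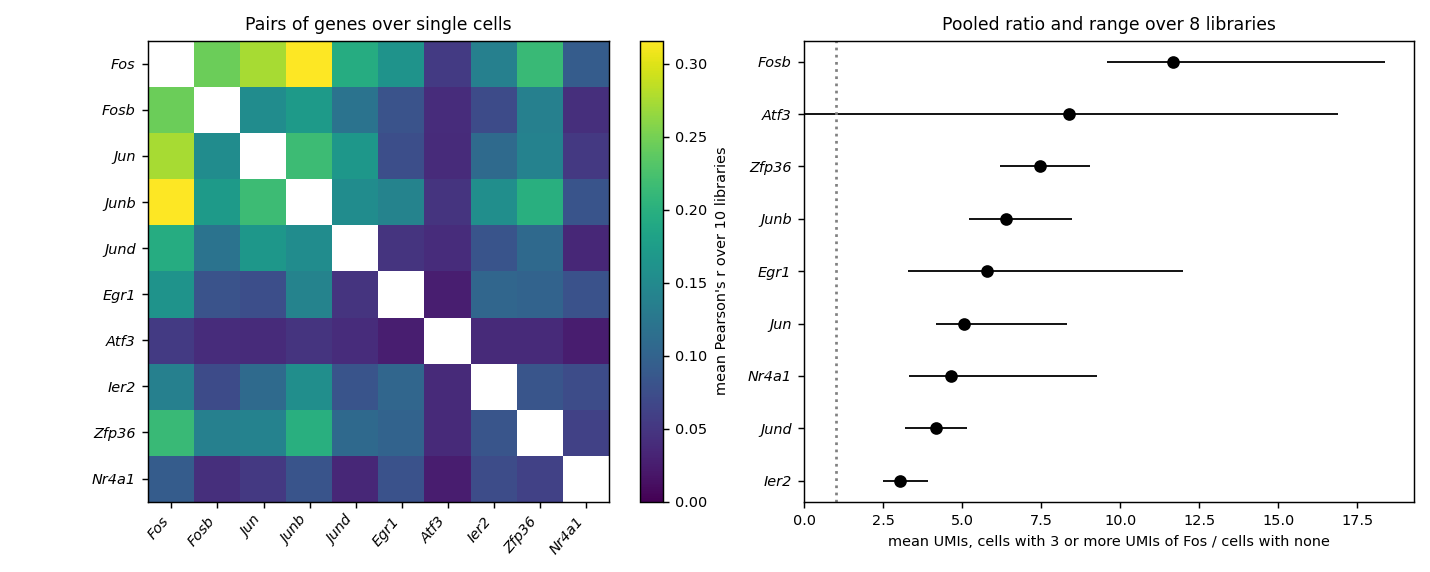
The left panel shows the mean Pearson's r over 10 libraries for each pair of the 10 genes over single cells thinned to 1000 UMIs. The right panel shows, for each gene, the ratio of mean UMIs in Fos-rich cells to cells without Fos as a pooled point with a line for the range over 8 libraries, the dotted line marking 1. All 9 pooled points lie above 1, from 3.04 for Ier2 to 11.7 for Fosb.

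Other immediate early genes and heat shock genes, taken from lists of 40 and 16, are both known to respond to tissue handling. Of 22 other immediate early genes found in at least 5% of cells, 16 had a ratio above 1.5 in Fos-rich cells, with a median of 1.76, among them Socs3 at 6.28, Btg2 at 4.86 and Dusp1, a MAP kinase phosphatase, at 4.12. None of the 8 heat shock genes found in at least 5% of cells did, and their median was 1.00. These were Hspa8, Hspa5, Hspb1, Hspd1, Hspe1, Hsp90aa1, Hsp90ab1 and Dnaja1. The strongly inducible Hspa1a and Hspa1b and the co-chaperone gene Dnajb1 were in fewer cells and were not compared in Fos-rich cells.

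Between groups the 2 lists were counted in the same way as the members. Over all gated cells 39 other immediate early genes were tested, and medians over all genes tested were within 0.01 of 0. With alendronate 23 were higher and 2 lower (median 0.33), 64.1% of the list against 22.6% of all genes, led by Cyr61, Fosl2 and Klf4 at 0.78, 0.77 and 0.76 on the log2 scale. In juvenile cells 10 were higher and 15 lower (median -0.11), 64.1% against 41.2%, Ctgf and Per1 rising by 1.65 and 1.62 and Klf2 falling to a log2 value of -0.92. In aged cells 14 were higher and 14 lower (median 0.04), 71.8% of the list and so near the 72.8% of all genes, Ctgf rising by 1.62 while Gadd45g and Dusp1 fell by 1.66 and 1.32. With PTH 12 were higher and 8 lower (median 0.07), 51.3% against 25.9%, led by Plk2, Klf2 and Rhob at 0.78, 0.58 and 0.52. The members' medians in the same comparisons were 0.35, -0.83, -0.92 and -0.07.

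Within types the same list was counted against the genes tested in that type. In bmECs with PTH 19 of 38 were higher and 1 lower, 52.6% against 9.80% of all genes, Socs3, Ier3 and Nfkbiz rising by 0.70, 0.58 and 0.57 on the log2 scale, and in mpECs 9 were higher and 7 lower, 42.1% against 17.3%, with Ctgf at -0.89, Cyr61 at -0.44 and Klf2 at 0.57. In aged bmECs 9 were higher and 19 lower, 73.7% against 66.3%, Ctgf rising by 2.75 while Gadd45g and Dusp1 fell by 2.03 and 1.92. In rECs with alendronate 10 of 32 were higher, 31.2% against 2.39%, Klf4, Klf2 and Plk3 rising by 1.74, 1.41 and 1.34. In aged rECs 10 were higher and 9 lower, 59.4% against 46.2%, Klf4 and Mcl1 rising by 2.60 and 1.52 and Plk2 falling by 1.28.

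Of 16 heat shock genes, 12 were higher with alendronate over all gated cells (75.0% against 22.6% of all genes), Hspa1b, Hspa1a and Hsp90aa1 rising by 1.18, 1.17 and 0.57 on the log2 scale. In juvenile cells 3 were higher and 10 lower (81.2% against 41.2%), Hspb1 and Hspa1a falling to log2 values of -1.65 and -1.58. In aged cells 5 were higher and 6 lower (68.8%, near the 72.8% of all genes), with Hspa1b at 2.41 and Hspe1 at -1.33. With PTH 7 were higher and 3 lower (62.5% against 25.9%), with Hspa1b at -1.37, Hspa1a at -1.27 and Hsp90aa1 at 0.43. Hspa1a and Hspa1b are near-identical copies whose reads the counting could split, so their single values are uncertain. In aged cells Hspa1a, at -0.22, went the other way from Hspa1b. With alendronate more genes of both lists were thus higher than lower, whereas in aged cells both lists moved in both directions.

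Outside the named EC types mean Fos levels ran from below to above those of ECs, over differing sets of libraries. Summed per library, it was lowest, of the clusters with at least 20 cells in 2 or more libraries, in the erythroid cluster, at 105 ± 77.4 CPM (SD, n = 8 libraries), under the mean of each EC type. It stood at 1072 ± 205 CPM (SD, n = 8 libraries) in the haematopoietic cluster and 935 ± 421 CPM (n = 4) in the mesenchymal cluster. In an unnamed cluster of 251 cells led by Adipoq and Ibsp it was 754 ± 272 CPM (n = 7). Sums of fewer than 20 cells were left out. The erythroid mean thus lacked both aged libraries and the haematopoietic mean both juvenile libraries, and the mesenchymal mean came from PTH and aged libraries only. Fos differed between groups, so the order of these means is not read. Leaving out clusters named for other cell types gave 10 juvenile, 8 aged, 5 PTH and 8 alendronate calls in place of 9, 7, 4 and 7. The share of all genes called was not counted in that fit, so these counts are read no further.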

How the data were processed

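Single-cell 3′ mRNA libraries of sorted bone ECs were measured in 10 samples, 2 per group, with groups and replicate numbers taken from the labels. The deposited files hold raw UMI counts per gene and cell, which the authors made with UMI-tools 1.1.2, STAR 2.7.10a and featureCounts 2.0.3 on mm10. The annotation release, strand setting, treatment of doublets and kit version of each library are not given in the sources used here, and no doublet caller was run. The members, gene lists and tests were chosen with earlier results of these data known.

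Counts were computed on as deposited. The 276 symbols counted in the aged tables alone were left out (1.52% and 1.53% of their UMIs). Cells were filtered as the report states, and clustered in Seurat 5.3.0 (2000 variable genes, 30 components, integration over libraries, resolution 0.5) with 66 immediate early and heat shock genes held out, which gave 19 clusters. A cluster was named from fixed markers. The last conditions of the naming rule (leading genes and depth) were set after the clusters had been seen. UMIs were summed per library, and per library and type where at least 20 cells were present, and tested with edgeR 4.0.16 (TMM, filterByExpr, quasi-likelihood test, Benjamini-Hochberg over all genes tested, R 4.3.3). Group comparisons used all 10 libraries in 1 fit, and comparisons between types had library as a block. Interaction terms and a fit without the aged group were added after the data had been seen. Total UMIs per library over gated cells were 10519012 to 28047979, so that low-count sums such as Atf3 in rECs limit precision.

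Alternatives were DESeq2 1.42.0, other scalings, no filter on low counts, stricter gates, other clusterings, types from a per-cell marker score, leaving out each library, and a replicate block. The code was tested on simulated data. Samples with the same replicate number did not deviate together (r over genes of -0.127 to 0.0453 for 10 pairs of groups), so the numbers were not taken as pairs. The genes named were the 10 members in every comparison. From the other lists they were the 3 called genes with the largest log2 fold change whose mean level was 20 CPM or more and whose direction did not vary over the pairs of libraries. Genes alike in cells were the 10 with the highest mean r with Fos and the 5 with the highest r with Jund, among genes in at least 5% of thinned cells.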

Additional observations from a re-analysis of the deposited data

Results flagged for a closer look

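The items below were flagged because the effect of a group differed between endothelial types by the interaction test (edgeR quasi-likelihood test with Benjamini-Hochberg adjustment). Members are named singly where, in addition, the change from adult was called in both types in opposite directions. No explanation was tested. Against bmECs, the effect in mpECs differed for 3 members in juvenile, 8 in aged and 8 in PTH, against 7.39%, 13.5% and 3.81% of all genes. The effect in aECs differed for 4 members in juvenile, 8 in aged, 3 in PTH and 3 in alendronate, against 5.28%, 16.1%, 2.12% and 2.08%. The effect in rECs differed for 1 member in juvenile, 7 in aged, 4 in PTH and 7 in alendronate, against 1.77%, 8.12%, 1.22% and 1.05%.

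Single members called in opposite directions in both types were Jund and Nr4a1 in aged mpECs, whose effects lay 1.20 and 1.21 above those in bmECs on the log2 scale. Jund in aged aECs and aged rECs lay 1.35 and 2.16 above. The aged mpEC call of Nr4a1 was lost without the first aged library or either adult library. In clusters made without integration neither Jund nor Nr4a1 was called in aged mpECs. With PTH, the mpEC effect lay below the bmEC effect for Egr1 (-1.39), Fosb (-0.89), Fos (-0.88), Zfp36 (-0.73) and Junb (-0.43). With PTH in rECs, Egr1 lay below by a log2 difference of -1.98, with only 26 rECs in the first PTH library.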

How the results depend on the processing

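Of the 750 alternative values over all gated cells, 725 kept their side of the threshold, of 1050 between types 1038, and of 3360 within types 3206. Where the main value was called its direction was kept too, and signs were not compared where neither value was called. Among values called in the main fit or the alternative, some signs turned. By total counts they were Jund in aged gated cells (0.28) and Egr1 in aged bmECs (0.34). Without integration they were Nr4a1 in aged aECs (0.63) and Jund in aged mpECs (-0.12). The cause was not tested. At 2000 UMIs per cell, which left out 9341 cells (20.7%), the mean r of members with Fos was 0.254 in place of 0.188, and 27.8% of cells had a Fos UMI in place of 18.0%. DESeq2 called 9 members in juvenile, 7 in aged, 3 in PTH and 7 in alendronate cells, 91 of 160 values within types and 3 of 50 between types. By total counts the numbers were 10, 10, 3, 7, 107 and 6. Leaving out 1 library gave 9 to 10, 7 to 8, 3 to 5, 6 to 8, 92 to 107 and 3 to 5. The replicate block called 9, 7, 4 and 8 members over all gated cells and 107 values within types, so it moved no count by over 1.5 times. For the alternatives here and above the share of all genes called was not counted. Their counts therefore show only how far the member calls moved. Depth limits the rare sums, such as Atf3 in rECs and rECs of juvenile libraries.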
